A study of Homo sapiens with 4 samples.

Results

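The T cell receptor (TR) genes were examined in a cell type that does not use them, a human B lymphoblastoid cell line (HG00731). The members were the genes on chromosomes 7 and 14 that the GENCODE v44 annotation of the hg38 build types as TR variable (V), diversity (D), joining (J) or constant (C) genes, 196 of the 62062 annotated genes on chromosomes 1 to 22 and X. They fell into 3 loci: TRA/TRD with 114 members (49 V, 3 D, 60 J and 2 C), TRB with 66 (48 V, 2 D, 14 J and 2 C) and TRG with 16 (9 V, 5 J and 2 C). The measurement was HiChIP, in which chromatin is cross-linked, cut and ligated to its spatial neighbours and then enriched with an antibody. SMC1, a core subunit of the cohesin ring, was pulled down from chromatin fixed with formaldehyde plus EGS, a longer cross-linker (FA-EGS), and CTCF from chromatin fixed with formaldehyde alone (FA). The cells carried no further treatment or genetic change in the labels. Each target had 2 samples, labelled as separate replicates, but the deposited peak and loop lists pool them, so no value here has a replicate error and no difference was tested. Intervals cover counting error only.

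In developing T cells the V, D and J segments of these loci are joined by recombination, and the joined exon is spliced to a C gene. The segments lie far apart on the chromosome, and cohesin, which extrudes loops of chromatin, together with CTCF, which stops cohesin when its motif points towards the oncoming loop, is known to bring distant V genes close to the D and J segments. In B cells the same machinery serves the immunoglobulin (IG) loci, while the TR loci are not normally rearranged. The antibody, the cross-linker, the number of reads and the number of read pairs in loops all differ between the SMC1 and the CTCF lists. Their contributions to a difference between the lists cannot be told apart.

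The SMC1 list held 96855 peaks on chromosomes 1 to 22 and X and the CTCF list 62869. The SMC1-labelled loop list held 28012 loops with 788356 read pairs, and the CTCF-labelled list held 80487 loops with 2666327. The study's text gives the 80487 loops to cohesin, and its tables give both loop totals for the opposite target. The lists are therefore named by their labels below, and a result for a target should be read with that in mind. As a check of the cell type, a summit within 1 kb of an annotated transcription start was present for 7 of 7 B cell markers in the SMC1 list, against 2 of 9 T cell markers (LCK and CD8A) and 62.6% of all protein-coding genes. In the CTCF list the counts were 5 of 7 and 2 of 9, against 46.7%. A peak at a start does not measure expression.

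Cohesin and CTCF peaks lined the TRA/TRD and TRG loci in these B cells, and were nearly missing from TRB. With peaks counted when their summit lay within 20 kb of a member, TRA/TRD had 59 SMC1 and 72 CTCF peaks, TRG 19 and 20, and TRB 2 and 3. Per megabase of the windows this was 67.4 SMC1 and 82.3 CTCF peaks at TRA/TRD, 113 and 119 at TRG, and 3.68 and 5.52 at TRB. All of chromosomes 1 to 22 and X held 33.3 SMC1 and 21.6 CTCF peaks per megabase. TRA/TRD and TRG thus lay above the genome's density for both targets and TRB below it.

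Seen from the genes, 111 of 114 TRA/TRD members and 16 of 16 TRG members had an SMC1 summit within 20 kb, but 15 of 66 TRB members did. Over all 196 members the share was 72.4%, close to the 73.7% of all annotated genes. For CTCF, 114 of 114, 15 of 16 and 11 of 66 members had a summit within 20 kb, 71.4% in all, against 70.0% of all genes. The pooled shares therefore hid loci that differed widely, and without TRB they were 97.7% for SMC1 and 99.2% for CTCF. Many segments lie close together and share a summit, so members are not independent of one another. The TRA/TRD members without an SMC1 summit in reach were the neighbouring V genes TRAV8-1, TRAV9-1 and TRAV10, whose nearest SMC1 summits lay 29112, 34456 and 20358 bp away. Their nearest CTCF summits lay 250, 13434 and 61 bp away. TRGJ1, a J segment, was the TRG member without a CTCF summit, missing the limit with its nearest at 20547 bp.

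**Figure D1:**
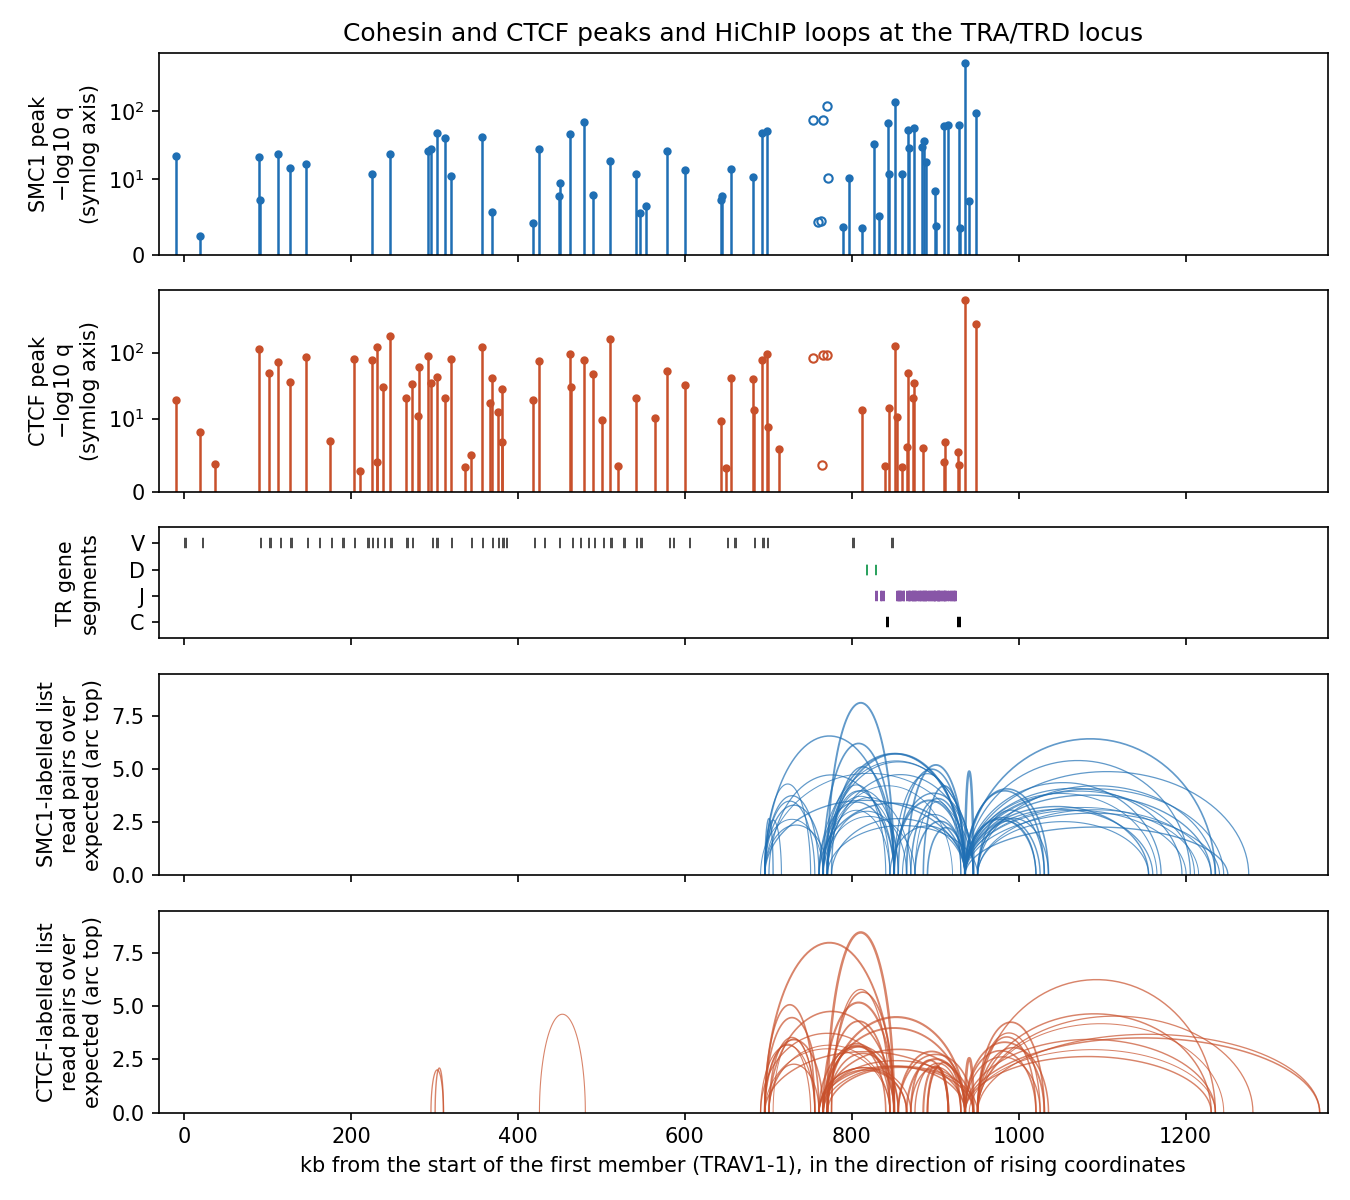
Peaks and loops at TRA/TRD, with kb from the start of TRAV1-1 on the horizontal axis. Filled points give the -log10 q of the 59 SMC1 and 72 CTCF peaks within 20 kb of a member (symlog axis), open points peaks between the first and last member that lie farther away. Bars mark the members by class, and each arc is a loop whose top gives read pairs over expected and whose width rises with the read pairs. Peaks run along the whole locus, while loops gather at its J and C end.

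V genes encode the part of the receptor that meets the antigen, and at TRA/TRD and TRG a CTCF summit stood close to the start of many of them. Of 49 V genes of TRA/TRD, 24 (49.0%, 95% Wilson interval 35.6 to 62.5) had a CTCF summit within 500 bp of their 5′ end, and of the 9 V genes of TRG, 7 (77.8%, 45.3 to 93.7) did. The share among all protein-coding genes was 24.5%, and among all genes 12.4%. For SMC1 the counts were 16 of 49 and 6 of 9, against 36.8% of protein-coding genes and 18.7% of all genes. At TRB 0 of 48 V genes had a summit of either target that close, with an upper Wilson bound of 7.41%. The Wilson intervals here count V genes as independent, which neighbouring copies are not. At TRB 82.3% of the 100-base runs recur in hg38, so a peak could be missed there and the bound does not limit the true share.

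At TRA/TRD 21 of those 24 CTCF summits lay upstream of the V gene and 3 inside it, with a median of 107.5 bp upstream. V pseudogenes, which are not members, showed the like: 4 of 9 at TRA/TRD and 3 of 5 at TRG had a CTCF summit within 500 bp of their start. J segments did so less often in the counts, with 10 of 60 at TRA/TRD and 0 of 5 at TRG. Among the V genes of TRA/TRD, the strongest CTCF peaks stood before TRAV13-1, with a -log10 q of 178 and a fold enrichment of 11.3 at 171 bp upstream, and before TRAV8-7, with 160 and 12.8 at 309 bp. Both lay between genes, and both overlapped an SMC1 peak. The -log10 q is the peak caller's test of the summit against its local background, so a larger value is a stronger peak.

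**Figure D2:**
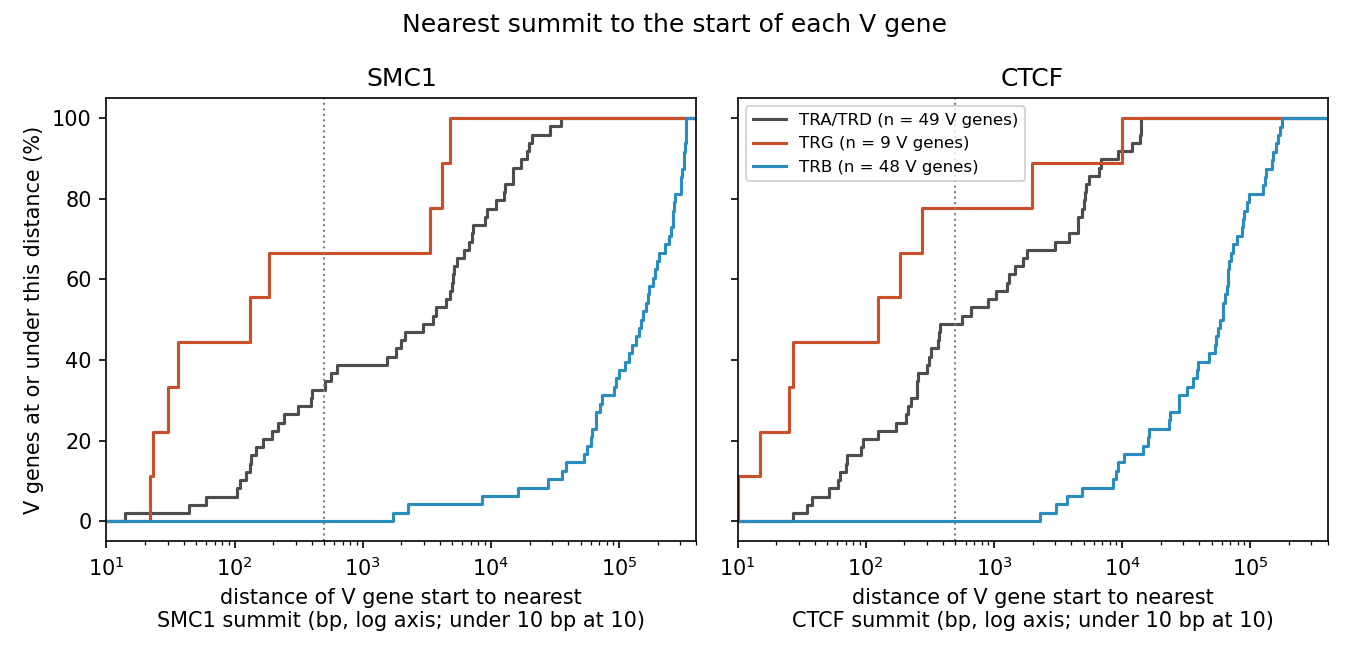
Cumulative share of V genes (vertical axis, percent) whose start lies within a given distance of the nearest SMC1 (left) or CTCF (right) summit, in bp on a log axis, for the 49 V genes of TRA/TRD, 9 of TRG and 48 of TRB. The dotted line marks 500 bp, where the CTCF curves stand at 49.0% for TRA/TRD, 77.8% for TRG and 0 for TRB.

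At TRG 5 of the V genes and a pair of V pseudogenes had a strong CTCF summit near their start, with a closely similar site beneath each. The summits lay 25 bp upstream of TRGV5, 0 bp from TRGV3, 15 bp upstream of TRGV2, 27 bp upstream of TRGV1 and 124 bp inside TRGV4. Their -log10 q was 135, 200.4, 129, 162 and 115 in that order, and each overlapped an SMC1 peak. A summit of the same kind lay 210 bp upstream of the V pseudogene TRGV7 (272, the strongest of the locus) and another 200 bp upstream of TRGV5P (80.5). The sites below are the stretches within 200 bp of each summit that scored best on a 19-base CTCF matrix learned from other chromosomes. They are shown because they come from copies of one gene family, with the 19 bases in capitals. All are read from the hg38 reference on the minus strand, the strand of the TRG genes.
TRGV7: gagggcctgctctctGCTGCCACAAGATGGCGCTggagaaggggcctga
TRGV5P: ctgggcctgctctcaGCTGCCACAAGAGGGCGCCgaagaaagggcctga
TRGV5: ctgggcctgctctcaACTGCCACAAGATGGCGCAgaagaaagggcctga
TRGV4: tctcaGCTGCCACAAGAGGGCGCCggaga
TRGV3: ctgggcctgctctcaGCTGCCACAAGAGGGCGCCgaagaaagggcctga
TRGV2: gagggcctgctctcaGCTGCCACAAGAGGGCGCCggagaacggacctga
TRGV1: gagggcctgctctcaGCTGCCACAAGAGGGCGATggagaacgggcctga

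The same 19 bases stood in 4 of these 7 sites. They lie at chr7:38335758-38335806 (TRGV7), chr7:38345742-38345790 (TRGV5P), chr7:38350067-38350115 (TRGV5), chr7:38354443-38354471 (TRGV4), chr7:38359221-38359269 (TRGV3), chr7:38363577-38363625 (TRGV2) and chr7:38368300-38368348 (TRGV1). The copies share sequence. In no 10 kb bin of TRG did more than 17.3% of the 100-base runs recur exactly elsewhere in hg38. This counts exact runs over 10 kb, so it does not show how reads under each summit map between nearly identical copies. TRGV9, which stands alone in its subgroup, had a CTCF and an SMC1 summit at the same base, 185 bp upstream (-log10 q 76.5 and 93.4), and its best matrix score, 5.47 bits, passed the 4.16 bits asked within 100 bp of a summit but not the 6.34 bits asked within 200 bp, so no site is shown. TRGV8, the other V gene counted, had a weak CTCF summit 273 bp upstream (6.94), with a best score of 2.95 bits. The nearest CTCF summits to TRGV10 and TRGV11 lay 9724 and 1529 bp away, the latter with a -log10 q of 3.40.

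**Figure D3:**
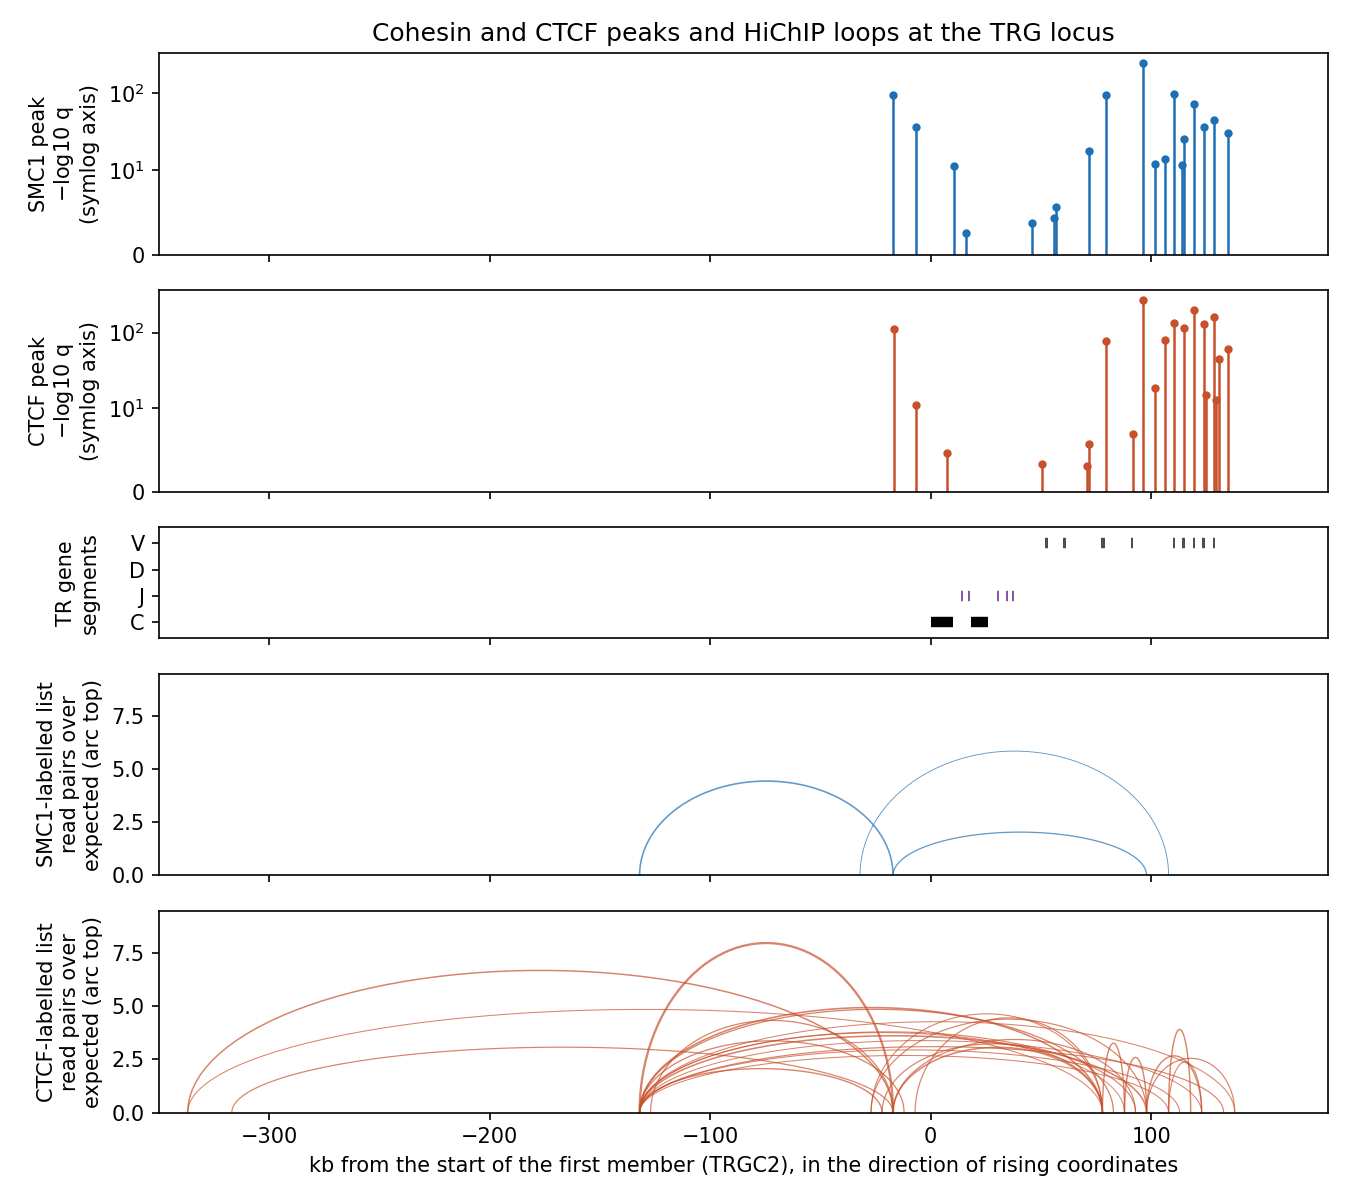
Peaks and loops at TRG, with kb from the start of TRGC2 on the horizontal axis, drawn as for TRA/TRD (19 SMC1 and 20 CTCF peaks, 3 loops in the SMC1-labelled list and 29 in the CTCF-labelled list). The tall peaks stand over the V genes on the right, the J and C genes carry few, and many loops run from a bin 129580 bp to the left of TRGC2 or from its left edge into the V genes.

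The CTCF motif was looked for first by its core letters, a stretch of 12 bases of which 7 are fixed, on either strand within 100 bp of a summit. The letters were present at 16 of 95 CTCF summits of the TR loci (16.8%, 95% Wilson interval 10.6 to 25.6), against 12.8% of all CTCF summits and 2.12% of equal windows 5 kb away. With the matrix, itself learned from sites that hold these letters, the counts were 29 of 95 (30.5%) against 27.4% and 5.37%. Among peaks with a -log10 q of at least 50, 21 of 31 TR summits held a matrix site (67.7%, 50.1 to 81.4), while 44.7% of all such peaks did. A match describes the letters and is not itself a bound site.

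Where a motif was found, it nearly always lay on the strand of the V gene beside it. Of the 24 CTCF summits within 500 bp of a TRA/TRD V gene, 9 had letters on 1 strand only, as had 4 of the 7 at TRG. The letters lay on the strand of the gene in 9 of 9 and 4 of 4 cases. By the matrix, the counts were 13 of 14 and 5 of 5, the odd case being TRAV40, whose site lay on the other strand. Summits within 500 bp of a protein-coding start shared the gene's strand in 325 of 600 cases by letters (54.2%) and in 727 of 1320 by the matrix (55.1%). V genes arose by duplication, so these sites share their descent as well as their strand. The strongest of the TRA/TRD peaks gave the following sites, all on the plus strand, the strand of the TRA genes, except that near TRAJ61.
TRAV13-1: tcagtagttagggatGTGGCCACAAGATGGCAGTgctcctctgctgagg
TRAV8-7: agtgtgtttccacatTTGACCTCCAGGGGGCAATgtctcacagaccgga
TRAJ61: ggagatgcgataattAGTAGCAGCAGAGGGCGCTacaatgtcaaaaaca
TRAC to DAD1: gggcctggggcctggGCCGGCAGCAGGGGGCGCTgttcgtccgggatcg
DAD1 intron: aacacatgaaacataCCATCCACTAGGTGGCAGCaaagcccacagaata

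These sites lie at chr14:21868614-21868662, chr14:22132241-22132289, chr14:22473149-22473197 (minus strand), chr14:22557332-22557380 and chr14:22570542-22570590. The core letters are absent from the sites near TRAJ61 and between TRAC and DAD1, although the latter stood 100 bp from the strongest CTCF summit of all 3 loci.

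The D and J segments, which supply the middle and the end of the joined exon, nearly all lay close to an SMC1 summit at TRA/TRD. At TRA/TRD, 60 of 60 J segments had an SMC1 summit within 20 kb and 56 of 60 within 5 kb, where 56.2% of all genes had one. For CTCF 37 of 60 had one within 5 kb, against 49.4% of all genes. Of the SMC1 peaks nearest to a J segment, 6 of 13 overlapped a CTCF peak, near the 47.1% of all SMC1 peaks, and 30 of 37 of those nearest to a V gene did. The strongest peaks of the J cluster stood at its start, 2144 bp (SMC1, 136) and 2152 bp (CTCF, 126) upstream of TRAJ61, in an intron of TRD-AS1, an antisense transcript.

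The 3 D segments of TRD had SMC1 summits 4236 bp (TRDD1), 4696 bp (TRDD2) and 793 bp (TRDD3) away, and CTCF summits 4314, 4774 and 12627 bp away. The D segments of TRB were farther off. TRBD1 stood 25438 bp from the nearest SMC1 summit and 95947 bp from the nearest CTCF summit, and the second, ENSG00000292271, 15942 and 86451 bp. TRG has no D segment, and its 5 J segments lay 848 to 14002 bp from an SMC1 summit and 6323 to 20547 bp from a CTCF summit.

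The C genes encode the stem and membrane anchor of the receptor chains, and those of TRA and TRD held peaks in their introns. TRAC had an SMC1 summit inside its intron with a -log10 q of 63.3 and a fold enrichment of 4.26. TRDC had one with 68.0 and 5.10 that overlapped no CTCF peak, its nearest CTCF summit being 910 bp away. TRGC2 had a weak CTCF summit in an intron (4.70) and its nearest SMC1 summit 532 bp away (11.4), and for TRGC1 the nearest summits lay 2390 and 10822 bp off. TRBC1 and TRBC2 had SMC1 summits 18294 and 8914 bp away, and CTCF summits 88803 and 79423 bp away.

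The highest peak of all 3 loci for both targets stood beyond the end of TRAC, on the side of DAD1. The region between TRAC and DAD1 is known in T cells for the enhancer of the TRA locus, and DAD1 is a housekeeping gene of protein glycosylation. The SMC1 summit, 5142 bp past TRAC, had a -log10 q of 521 and a fold enrichment of 7.93, higher than 99.99% of all SMC1 peaks. The CTCF summit, 5100 bp past TRAC, had 631 and 15.6, higher than 99.96% of all CTCF peaks. A second shared peak lay in an intron of DAD1, 18478 bp past TRAC, with 96.0 for SMC1 and 267 for CTCF. At the edges of the rule this was the last peak counted at TRA/TRD, and the first left out lay 29388 bp (SMC1, 10.4) and 30635 bp (CTCF, 93.3) from TRDV2. At TRG the last counted lay 17123 bp (SMC1, 94.98) and 16864 bp (CTCF, 111) from TRGC2, and the first left out, at 23519 bp (SMC1, 132) and 23577 bp (CTCF, 202.5), were stronger than these.

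Loops gathered at the J and C end of TRA/TRD. The list labelled SMC1 held 71 loops with an anchor within 20 kb of a TRA/TRD member, and the CTCF-labelled list 63, while TRG had 3 and 29 and TRB 0 and 0. A loop here is a pair of 5 kb bins with more read pairs than a model of distance and enrichment expects, and the caller starts from the peaks, so a locus with few peaks has few bins to test. Anchors lay within 20 kb of 75 of the 196 members in the SMC1-labelled list (38.3%, against 34.2% of all genes) and of 88 in the CTCF-labelled list (44.9%, against 56.2%). These pooled shares again hid loci that differed. In the same order of lists they were 58.8% and 68.4% at TRA/TRD, 50% and 62.5% at TRG, and 0 of 66 members at TRB in both. By class, 60 of 60 J segments of TRA/TRD and both of its C genes had an anchor in reach in either list, but 4 and 15 of its 49 V genes. The V genes in the former were TRAV39, TRAV40 and TRAV41, at the J-side end of the V array, and TRDV3, which lies past TRDC. The stretch more than 20 kb before TRAV40, which holds 44 V genes, had an anchor of 0 of the 71 loops and of 3 of the 63, although CTCF peaks stood along that whole stretch.

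A few bins held many of these loops. The bin 2845 bp past TRAC, with the highest peak of the loci in it, was an anchor of 34 of the 71 loops (1777 read pairs) in the SMC1-labelled list and of 13 of the 63 (1722 read pairs) in the CTCF-labelled list. It acted as the left anchor in 20 and as the right in 14 of the former. The bin 82 bp from TRAV40 anchored 10 and 7 loops. That 303 bp from TRDV3, which holds the strong peaks upstream of TRAJ61, anchored 9 and 7. The bin 89 bp from the nearest annotated transcript start of DAD1 anchored 7 and 10, and its strongest peaks are those in the DAD1 intron. Adjoining bins between TRAV41 and TRDV2, 27371 and 32371 bp from any member, anchored 10 and 9 loops in the SMC1-labelled list and 6 and 8 in the CTCF-labelled list. Their highest -log10 q was 119 for SMC1 and 93.4 for CTCF, and the 20 kb limit leaves these peaks out of the counts above. In all, 6 SMC1 and 4 CTCF peaks between the first and last TRA/TRD member were left out in this way.

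The loop with the most read pairs joined the bin past TRAC to one 10 kb farther on, towards DAD1. It had 385 read pairs against 78.7 expected in the SMC1-labelled list, a ratio of 4.89 (95% Poisson interval 4.42 to 5.41), and 778 against 305 in the CTCF-labelled list, a ratio of 2.55 (2.38 to 2.74). At this short span the expected number is high. The second joined the bin 27371 bp before TRDV2 to that 303 bp from TRDV3 over 80 kb, with 113 against 13.9 (8.12, 6.70 to 9.77) and 412 against 48.6 (8.48, 7.68 to 9.34). It had the highest ratio among the loops of the locus in both lists.

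Other strong loops linked the same few bins with one another. From the bin past TRAC, the SMC1-labelled list gave 109 pairs to the bin 303 bp from TRDV3 (ratio 3.53), 95 to TRAJ52 (5.20) and 88 to the bin 27371 bp before TRDV2 (5.73). The list labelled CTCF gave 175 for the last (4.49) and 169 for TRAJ52 (2.52), and held no loop for the first. The next bin, which holds TRAJ61 itself, was joined to the bin past TRAC in both lists, with 54 pairs (5.00) and 93 pairs (2.88). Of the 71 loops, 36 had the same pair of bins in the other list (50.7%), as did 36 of the 63 (57.1%), against 69.0% and 24.0% of all loops of the 2 lists.

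Away from the locus, all partners lay on the DAD1 side. Among the loops with 1 anchor at a member, the other anchor lay past TRAC in 25 of 52 in the SMC1-labelled list and in 16 of 44 in the CTCF-labelled list, before TRAV1-1 in 0 of either, and in the gap between members in 27 and 28. The farthest lay 343 kb and 428 kb past TRAC. Partner bins within 1 kb of a protein-coding start were those of OR6J1, SLC7A7, MRPL52, MMP14 and LRP10 in the former and of OR6J1, RBM23 and AJUBA in the latter.

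**Figure D4:**
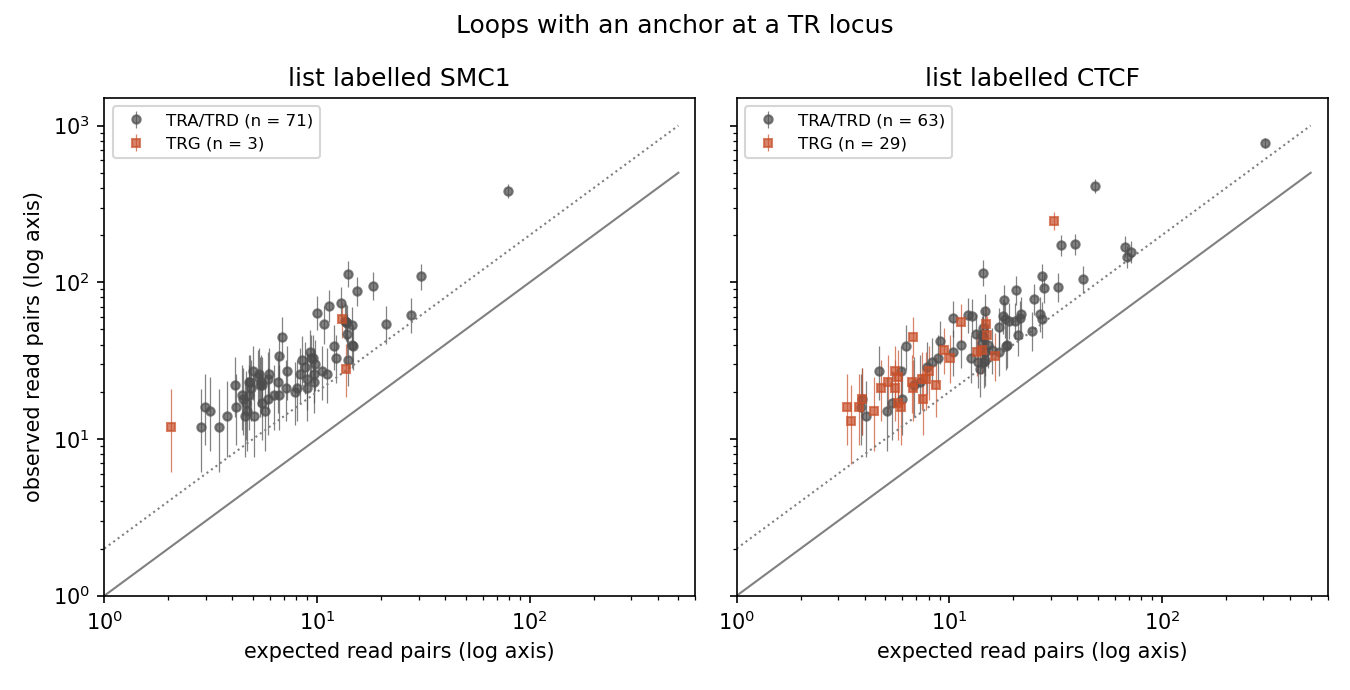
Observed against expected read pairs (both log axes) for each loop with an anchor at a TR locus, in the SMC1-labelled list (left, 71 at TRA/TRD and 3 at TRG) and labelled CTCF (right, 63 and 29). Bars are 95% Poisson intervals, the full line marks equality and the dotted line a ratio of 2, below which no listed loop falls. The point at the upper right of each panel is the loop between TRAC and DAD1.

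At TRG the 2 lists differed most. The 3 loops of the SMC1-labelled list were 1 from a bin 129580 bp beyond TRGC2 to one 14580 bp beyond it, in an intron of STARD3NL (58 pairs against 13.1), 1 from the latter to the bin at TRGV7 (28 against 13.7) and 1 from a bin 29580 bp beyond TRGC2 to that at TRGV5 (12 against 2.05). The list labelled CTCF held the first with 247 pairs against 31.0, a ratio of 7.98 (7.01 to 9.04), and 28 more. Its bin 129580 bp from TRGC2 anchored 13 loops, with every partner towards the V genes, and the bins at TRGV9, beyond TRGC2 and at TRGV7 anchored 7, 6 and 5. Of the 29 loops 10 had both anchors at members and 19 had 1, and in those 19 the partner always lay on the STARD3NL side. Only 1 of the 29 had its pair of bins in the other list.

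CTCF motifs at both anchors could be read for few of these loops. Sites were sought within 100 bp of a summit, so the site shown above for TRAC to DAD1 was not counted. The bin with that peak, an anchor of 34 of the 71 and 13 of the 63 TRA/TRD loops, therefore adds none to the counts below. Taking the strongest CTCF peak in each anchor and its matrix site, 8 loops of the SMC1-labelled list had a site at both, of which 2 pointed towards each other, and 15 of the CTCF-labelled list, of which 5 did. In all loops the shares were 59.6% of 2855 and 61.6% of 5420. At TRG 5 of 7 such loops in the CTCF-labelled list had both sites on the minus strand, the strand of the TRGV copies shown above.

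SMC1 and CTCF peaks coincided at the TR loci somewhat more than across the genome for SMC1 and less for CTCF. Of 80 SMC1 peaks, 55 overlapped a CTCF peak by at least 1 bp (68.8%, 95% Wilson interval 57.9 to 77.8), against the same 47.1% of all SMC1 peaks. Of 95 CTCF peaks, 59 overlapped an SMC1 peak (62.1%, 52.1 to 71.2), against 75.9% of all CTCF peaks. When an overlap of 50% of both peaks was asked for, the share of SMC1 peaks was 41.2%. No share of all SMC1 peaks is given under this rule, so 41.2% cannot be set beside the 47.1%. Of the 36 unshared CTCF peaks of the loci, 24 were nearest to a TRA/TRD V gene, as were 55 of all 95 CTCF peaks.

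TRB, the locus of the beta chain, had the 2 SMC1 peaks and 3 CTCF peaks and no loop in either list. The SMC1 peaks lay 924 bp from TRBV30 (-log10 q 19.5) and 2252 bp upstream of TRBV24-1 (3.36). The CTCF peaks lay 3682 bp upstream of TRBV5-5 (46.1), 3044 bp upstream of TRBV5-6 (6.86) and 2305 bp upstream of TRBV24-1 (8.18). The genes around the locus were bare as well: 0 of 10 neighbours, among them MGAM, PRSS1, PRSS2, EPHB6 and KEL, had a summit of either target within 1 kb of a start, against 8 and 6 of 10 neighbours of TRA/TRD and 3 and 5 of 7 of TRG.

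A property of the reference moved with this. Of all 100-base runs in the TRB windows, 82.3% occurred a second time in hg38, and 82.2% on 1 alternate sequence of chromosome 7 that carries the locus again, while the shares were 0.838% at TRA/TRD and 4.35% at TRG. The study kept only reads above a minimum mapping quality, which a read that fits 2 places equally well does not reach unless the aligner is told of the alternate sequences, and this setting is not given in the sources used here. Among the genes outside the TR and IG families with at least 65% of their 20 kb window on alternate sequences, which every TRB member exceeds, 6.85% of 2161 had an SMC1 summit within 20 kb and 8.14% a CTCF summit. Among those with under 5% there, 77.0% and 73.0% of 57388 had one. The TRB shares, 22.7% and 16.7%, lay between these backgrounds. The 10 TRB neighbours had a median of 84.9% of their 20 kb windows on alternate sequences (38.9 to 100). The medians were 0% for the TRA/TRD neighbours and 0.347% for the TRG neighbours, so the neighbours differ in this property as the loci do. The alternate sequence itself held 3 SMC1 and 7 CTCF peaks, the strongest with a -log10 q of 23.3, all within 20 kb of an exact copy of a TRB member. The part of repeated sequence in the low counts at TRB and its neighbours was not tested. A missing peak there does not show that a factor was absent.

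**Figure D5:**
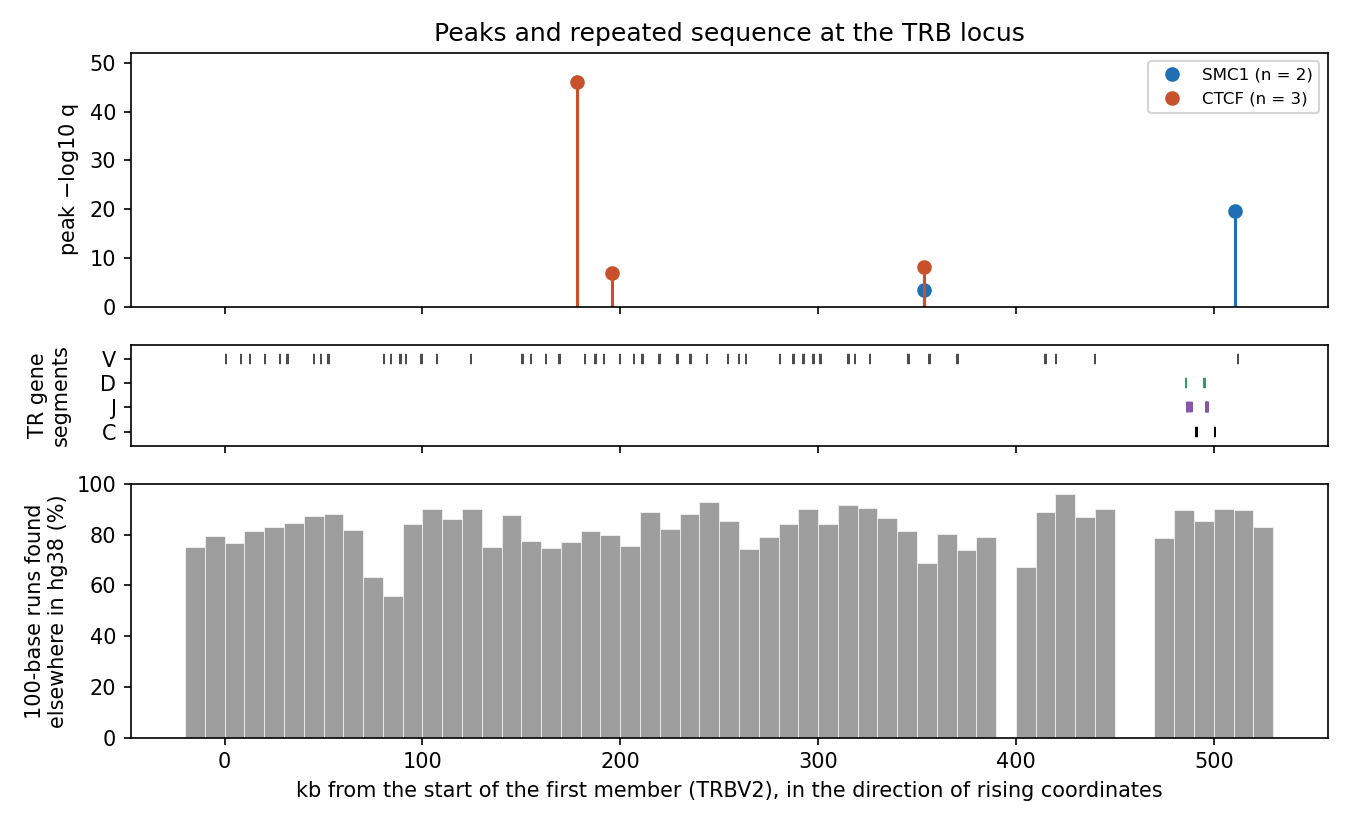
TRB with kb from the start of TRBV2 on the horizontal axis. Top, -log10 q of the 2 SMC1 and 3 CTCF peaks. Middle, the members by class. Bottom, share of 100-base runs in each 10 kb that occur elsewhere in hg38, empty where no member lies within 20 kb. The lowest bin drawn stands at 55.9%.

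The IG loci, those that B cells rearrange, gave a similar range. Under the same rule SMC1 and CTCF peaks numbered 101.3 and 83.2 per megabase at IGL, 26.9 and 24.9 at IGK and 3.20 and 5.60 at IGH. TRA/TRD thus lay below IGL for SMC1 (67.4) and close to it for CTCF (82.3), and TRG above it for both. The share of repeated 100-base runs was 20.2% at IGL, 36.7% at IGK and 96.0% at IGH, so the loci with the highest shares, IGH and TRB, had the fewest peaks per megabase, and both had 0 loops in either list. IGL had 81 loops in the SMC1-labelled list and 115 in the CTCF-labelled list, against 71 and 63 at TRA/TRD. The median ratio of read pairs to expected was 2.90 and 2.91 at IGL and 3.72 and 3.16 at TRA/TRD, and 4.004 and 4.03 over all loops. The order of loci was not tested, as each is a single region in pooled lists of 1 cell line.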

How the data were processed

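HiChIP of SMC1 and CTCF was measured in 2 labelled replicates each. The authors mapped reads with BWA-MEM on hg38, filtered on mapping quality, removed duplicates, called peaks with MACS3 3.0.1 and loops in 5 kb bins with MAPS, and deposited 1 pooled list per target. The deposited peak files hold a display score, a fold enrichment ratio, the -log10 of the q-value and the summit (the -log10 p column was not used), and the deposited loop files hold counts of read pairs, the expected count and a p-value corrected as FDR, up to 0.01. The list labelled SMC1 and that labelled CTCF were used as labelled.

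Members were matched by gene type in GENCODE v44, and peaks and loops by distance, with a limit of 20 kb. The authors' text and tables name the targets of the loop totals the other way round. Peaks named are the 5 strongest per locus and target, loops the 5 with most read pairs per locus and list, plus the constant and D genes and listed neighbours. The other V genes of TRG, TRGV5P, TRAV39 to TRAV41, TRDV3, the bins with most loops, the loop from TRAJ61 and the partner genes outside the neighbour list were named after their values were seen. A CTCF matrix of 19 bases was learned from 870 sites among 3000 strong peaks on other chromosomes. Each was the only match to the core letters near its summit, so the matrix is not independent of the letters. Its minimum is the score that 5% of windows 5 kb away reach. The scripts, tested on simulated data, used Python 3.11.15 with NumPy 2.4.6, pandas 2.3.3, SciPy 1.17.1, pysam 0.24.0 and Numba 0.67.0. The members and lists were chosen with earlier results of these data known. Depth per sample is unknown, because the lists are pooled. The study gives total reads per target, and they are higher for SMC1 than for CTCF. Alternatives tried were other distances, peak strengths, overlap rules, motif letters, the exchanged loop lists, and, chosen after seeing the data, the alternate sequence of chromosome 7, the matrix and TRB left out.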

Additional observations from a re-analysis of the deposited data

How the results depend on the processing

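No paired analysis was possible because the deposited lists pool the 2 replicates of each target, and for the same reason no replicate could be left out. Counts of peaks and of loops over all 3 loci stayed within 1.5 times under each alternative tried, the exchanged loop lists included (92 and 74 loops in place of 74 and 92). That exchange moved TRG between 3 and 29 loops, and 17 of the 29 remained when loops under the median in read pairs were dropped. At TRB 1 SMC1 peak of 2 had a -log10 q of at least 5 or 10, and 1 CTCF peak of 3 had at least 10. The share of members with an SMC1 summit was 54.6% at 5 kb, 79.1% at 50 kb and 97.7% without TRB, and that with a CTCF summit 47.4% at 5 kb, 55.6% with a -log10 q of at least 10 and 99.2% without TRB. The share of shared SMC1 peaks was 41.2% with a reciprocal overlap of 50%, a rule under which no share of all SMC1 peaks is given. The share of CTCF summits with the motif was 9.47% within 50 bp, 26.3% within 200 bp, 5.26% with stricter letters and 30.5% with the matrix, so the letters' share depends on the window and the letters. Adding the alternate sequence of chromosome 7 gave TRB 5 SMC1 and 10 CTCF peaks.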
